A study of Mus musculus with 2 samples.

Results

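The integrin subunit genes of sorted sham microglia were examined in the 2 sham libraries of this series. The members were 10 genes chosen by name, as the α and β subunit genes Itgam, Itgax, Itgal, Itgb2, Itga4, Itga6, Itga9, Itgav, Itgb1 and Itgb5, out of 53801 genes listed per library and 27 integrin genes in the annotation. The list includes the genes of the sort antigens CD11b (Itgam) and CD11c (Itgax), and the rule names genes and uses no measured value. Each library held the RNA of microglia from the left hemisphere of 1 mouse, collected 3 days after sham surgery. The mice were hemizygous Cx3cr1(CreER/wt) on a C57BL/6 background, male and 8 to 10 weeks old by the series description, whereas the study's methods give an older range and both sexes, and both had received tamoxifen at 75 mg/kg/day for 4 days, beginning 14 days before surgery. In these mice CreER is driven from the Cx3cr1 locus, so 1 Cx3cr1 allele carries it, and the labels name no floxed allele. Cells were sorted as CD11c–Ly6G–CD11b+CD45low, so the proteins of Itgam and Itgax were themselves part of the gate. The treatment label of both samples reads none, while their titles name sham surgery. The libraries of the stroke arm were not analysed here, so no condition was compared and every ratio below compares 2 mice of 1 group.

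Integrins are cell-surface receptors made of 1 α and 1 β subunit, and only the paired dimer reaches the surface. The β2 subunit, which is found on leukocytes, pairs with several α subunits to bind intercellular adhesion molecules and complement, the β1 subunit pairs with α subunits that bind laminin, fibronectin or VCAM-1, and αV pairs with several β subunits to bind ligands with an Arg-Gly-Asp motif, among them latent TGF-β. Binding is switched on from inside the cell, when talin and kindlin attach to the tail of the β subunit. In microglia, αMβ2 serves as complement receptor 3 in phagocytosis and process movement, and αV integrins bind the bridging protein MFG-E8 on dying cells.

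Library 1 held 23381026 counts on genes and library 2 held 41142609, so a count of 0 allowed up to 0.128 and 0.0729 counts scaled to a total of 1000000 (CPM). The libraries stood apart in their markers. Microglia genes were high in both, with a summed level over 10 genes of 39111 and 44410 CPM. A list of 12 neutrophil genes took 0.509% of the counts of library 1 and 6.24% of those of library 2 (5088 and 62398 CPM), 11 of the 12 were higher by over 2-fold in library 2, and none was at 0 in either library. Ly6g, whose protein was gated out, had 15.4 and 211 CPM. Of 5 border macrophage genes, 3 were lower by over 2-fold in library 2, and the list summed to 563 and 216 CPM. Across the 13445 genes that reached 10 counts in each library, 5.74% were higher and 25.9% lower by over 2-fold in library 2. Adjusted for GC content and length as described below, 3 border macrophage genes stayed lower by over 2-fold, beside 12.7% of 13439 genes. Likewise, 11 neutrophil genes stayed higher, beside 9.70%. The monocyte list summed to 676 and 3337 CPM and the choroid plexus list to 24.3 and 370.03 CPM. Basophil or mast cell genes summed to 0.0855 and 167 CPM, with Fcer1a, Mcpt8, Ms4a2 and Prss34 at 0 counts in library 1. T or NK cell genes summed to 0.171 and 3.38 CPM, with Cd3e at 0 in both, Cd3d at 3 and 109 counts and Klrb1c at 0 and 18 counts. The B cell list summed to 52.6 and 57.5 CPM, of which Cd79b alone gave 52.1 and 55.4 CPM, while Cd79a had 7 and 56 counts. The platelet list summed to 43.8 and 60.7 CPM, nearly all of it from Gp9, with Gp5 and Gp6 at 0 in both. The endothelial list summed to 18.6 and 15.2 CPM, of which Pecam1 gave 16.1 and 14.4 CPM, with Tek at 0 in both. The dendritic cell list summed to 28.1 and 27.2 CPM. Ptprc, which encodes the sort antigen CD45, had 418 and 381 CPM.

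Integrin genes arose by duplication, and reads from stretches that are identical in several genes cannot by themselves be assigned to 1 of them. A comparison of the GENCODE M21 transcripts of all 27 integrin genes was made to see where this touched the members. The longest run shared by a member and another integrin gene lay in Itgax and its neighbour Itgad, which encodes αD. It was 188 bases long, all of it coding, and was longer than the 75-base reads. Both sequences are shown because a read that lies inside the run cannot by itself be told apart between the genes. The reads were paired, so a mate outside the run could place it. They are spliced sequence of GRCm38 read 5′ to 3′, with the shared run in capitals and 12 bases on each side in lower case. The Itgax stretch covers exons 11 to 13 at chr7:128135612-128136062 on the plus strand, and the Itgad stretch exons 12 to 14 at chr7:128189340-128189789 on the plus strand.
Itgax: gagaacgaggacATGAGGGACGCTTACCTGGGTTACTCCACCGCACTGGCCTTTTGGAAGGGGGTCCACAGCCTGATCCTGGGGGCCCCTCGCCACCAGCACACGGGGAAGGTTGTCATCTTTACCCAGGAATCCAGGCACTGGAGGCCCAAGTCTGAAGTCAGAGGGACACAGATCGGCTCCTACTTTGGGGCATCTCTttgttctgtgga
Itgad: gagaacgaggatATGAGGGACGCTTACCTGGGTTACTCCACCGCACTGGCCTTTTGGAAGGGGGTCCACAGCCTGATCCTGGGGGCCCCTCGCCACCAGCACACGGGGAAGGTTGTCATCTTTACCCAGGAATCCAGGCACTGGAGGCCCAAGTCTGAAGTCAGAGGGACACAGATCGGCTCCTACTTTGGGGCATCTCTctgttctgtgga

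In the other members, runs shared with another integrin gene were at most 43 bases long, whereas sharing with genes of any kind was wider. Of the 75-base words in the transcripts of each gene, 5.01% were shared in Itgax, all with Itgad, and Itgad itself had 1 and 5 counts. In Itgb2, 0.21% of the words were shared, with Gm14699. In Itgal, Itga9 and Itgb1 no word was found in another gene. Itgb5 shared 6.48% of its words with Gm38317, and Itga6 shared 4.46% with 8 other genes. Itgam shared 65.2% of its words with Gm49368, Itga4 6.94% with Cerkl and Itgav 5.14% with Gm13684, each a gene that overlaps it. Overlapping annotation weighed most on Itgam. Gm49368, a gene on the same strand that starts inside Itgam and runs past its end, shared 3450 of the 5024 exonic bases of Itgam (68.7%), yet it was listed at 3 and 0 counts. Of the 1574 bases left to Itgam alone, 1430 (90.9%) lay 3′ of the last shared base. Whether reads from the shared bases were counted for Itgam or for neither gene is not given in the sources used here, so the Itgam level is uncertain. If they were counted for neither, the level of Itgam over all its exonic bases is too low. On the opposite strand, Cerkl overlapped 8.04% of the exonic bases of Itga4 and Gm13684 overlapped 5.90% of those of Itgav. The strand setting is not given either, so reads of such pairs cannot be told apart, although Cerkl had 9 and 5 counts and Gm13684 106 and 94.

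All 10 members were counted, which here means at least 10 counts in both libraries, as 13445 genes were. The β subunit genes and Itgam held the highest levels and Itgax and Itga4 the lowest. Itgb2, at chr10:77530252-77565708 on the plus strand, encodes the common β2 chain (CD18). It had 16862 counts (721 CPM) in library 1 and 41814 counts (1016 CPM) in library 2, with a mean of 869 ± 209 CPM (SD, n = 2). Itgb2 was the 1 member with a higher level in library 2, and its mean exceeded that of 99.0% of counted genes. The log2 ratio of CPM, library 2 over library 1, was 0.49 with an exact 95% Clopper-Pearson interval of 0.47 to 0.52. Such intervals hold counting error alone and leave out how much mice vary.

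**Figure D1:**
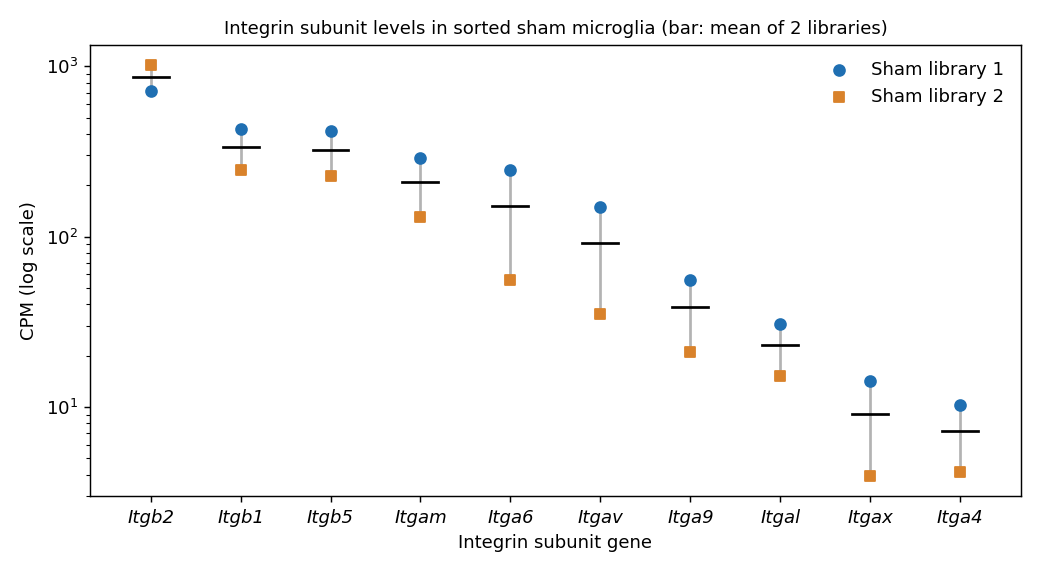
Level in CPM (log axis) of the 10 integrin subunit genes in sham library 1 (circles) and sham library 2 (squares), with a bar at the mean of both libraries. Library 2 lies below library 1 for 9 of the 10 genes and above it for Itgb2, and Itgb2 has the highest level in both.

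The α partners of β2 lie on chromosome 7. Itgam (chr7:128062640-128118491, plus strand) encodes αM, which with β2 forms complement receptor 3, and its 6777 and 5386 counts gave 290 and 131 CPM, a mean of 210 ± 112 CPM (SD, n = 2). Itgax (chr7:128129547-128150657, plus strand) begins 11055 bases after the end of Itgam and encodes αX, the partner of β2 in complement receptor 4. It was low in both libraries, with 332 counts (14.2 CPM) and 162 counts (3.94 CPM), and its mean of 9.07 ± 7.26 CPM (SD, n = 2) exceeded that of 37.0% of counted genes. Itgax RNA was thus counted in both libraries of a gate that was negative for CD11c. Itgal (chr7:127296260-127335138, plus strand) encodes αL of LFA-1, a receptor for ICAM-1, and had 721 counts (30.8 CPM) and 621 counts (15.1 CPM), with a mean of 23.0 ± 11.1 CPM (SD, n = 2). All of these α genes were lower in library 2 than in library 1, against the direction of Itgb2. The log2 ratios were −1.15 (interval −1.20 to −1.09) for Itgam, −1.85 (−2.13 to −1.58) for Itgax and −1.03 (−1.19 to −0.87) for Itgal, whose interval spans 2-fold. β2 and its α partners are also carried by neutrophils, whose list was higher in library 2, and the part of those cells in these values was not tested. In such pooled RNA, fewer cells of a type and less RNA per cell cannot be told apart.

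Among the β1 family, Itgb1 (chr8:128685654-128733200, plus strand), which encodes the common β1 chain, was high in both libraries. Its 10024 and 10152 counts gave 429 and 247 CPM, with a mean of 338 ± 129 CPM (SD, n = 2) and a log2 ratio of −0.80 (interval −0.84 to −0.76). Itga6 (chr2:71745616-71858416, plus strand), which encodes the α6 chain of laminin receptors, had 5741 counts (246 CPM) and 2285 counts (55.5 CPM), a mean of 151 ± 134 CPM (SD, n = 2). With a log2 ratio of −2.14 (−2.21 to −2.07), it had the lowest ratio of the members, and 5.43% of counted genes had a lower one. Itga9 (chr9:118606690-118901003, plus strand) encodes α9, a receptor chain for tenascin-C and osteopontin. It had 1304 counts (55.8 CPM) and 860 counts (20.9 CPM), a mean of 38.3 ± 24.7 CPM (SD, n = 2) and a log2 ratio of −1.42 (−1.54 to −1.29). Itga4 (chr2:79255426-79333123, plus strand) encodes α4, which binds VCAM-1 in VLA-4 and which is carried by monocytes and lymphocytes in blood. It was the lowest member by mean, with 240 counts (10.3 CPM) and 170 counts (4.13 CPM), a mean of 7.20 ± 4.34 CPM (SD, n = 2) and a log2 ratio of −1.31 (−1.60 to −1.02). Of the 5 monocyte genes, Chil3 (log2 ratio 2.67) and Ly6c2 (1.74) were higher by over 2-fold in library 2, and Ccr2 (0.23), Plac8 (−0.17) and Vcan (−0.67) were within 2-fold. Of all counted genes, 5.74% were higher and 25.9% lower by over 2-fold.

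The αV pair was also unequal. Itgb5 (chr16:33829665-33949153, plus strand) encodes β5, which pairs with αV alone, and its 9769 and 9343 counts gave 418 and 227 CPM, a mean of 322 ± 135 CPM (SD, n = 2). Its log2 ratio was −0.88 (interval −0.92 to −0.84). Itgav (chr2:83724397-83806916, plus strand) had 3483 counts (149 CPM) and 1453 counts (35.3 CPM), a mean of 92.1 ± 80.4 CPM (SD, n = 2) and a log2 ratio of −2.08 (−2.17 to −1.99). Itgav lay next to Itga6 at the low end of the members, with 6.08% of counted genes below it.

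The spread between the libraries was then read against all counted genes. In all 7 α members library 2 was lower by over 2-fold, and none of the 3 β members passed 2-fold in either direction. Among the 13445 counted genes, 25.9% were lower by over 2-fold and 5.74% higher, the median log2 ratio was −0.26, and the middle 50% of genes lay between −1.03 and 0.27. The median of the 10 members was −1.23. With TMM library sizes, which raised every ratio by 0.23, 5 members were lower by over 2-fold beside 20.0% of counted genes, and Itgam (−0.92) and Itgal (−0.80) were the members that no longer passed. No member changed sign under TMM or DESeq2 scaling.

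Transcript length followed the same division. The longest transcripts of the 7 α members measured 4.046 to 9.767 kb and those of the 3 β members 2.97 to 3.815 kb. Over all counted genes with a known transcript, divided into 10 bins by length, the median log2 ratio was 0.17 for transcripts of 1.657 to 2.143 kb, −0.05 for those of 2.642 to 3.106 kb, where Itgb2 falls, and −1.05 for those of 6.443 kb and longer. In that longest bin, 52.6% of genes were lower in library 2 by over 2-fold. When the median of genes of like GC content and length was subtracted from each ratio, a choice made after seeing the data, 3 members stayed lower by over 2-fold, beside 12.7% of 13439 genes lower and 9.70% higher. They were Itgav (−1.26), Itga6 (−1.22) and Itgax (−1.11). Itga9 (−0.03), Itgb5 (−0.07) and Itgam (−0.22) lay near the median of genes like them, and Itgb1 (−0.45) and Itga4 (−0.50) somewhat below it. Itgb2 (0.70) and Itgal (0.45) lay above it, so that the sign of Itgal was reversed, whereas adjustment for length alone left it at −0.07. After adjustment the α members (−1.26 to 0.45) and the β members (−0.45 to 0.70) overlapped.

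**Figure D2:**
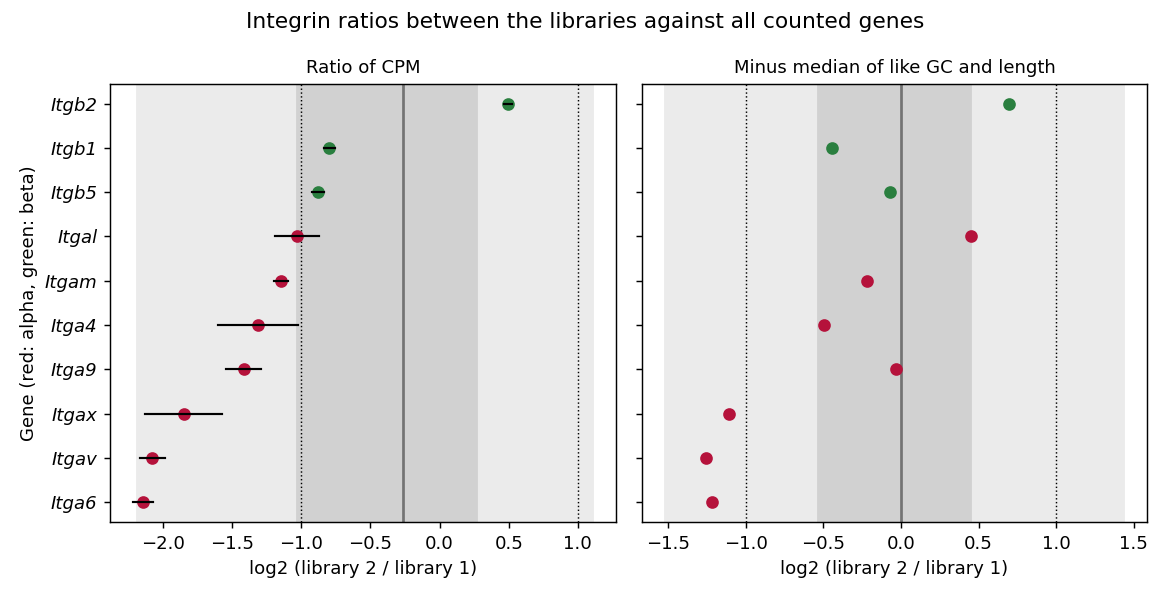
Log2 ratio of CPM, library 2 over library 1, of each member (left, with exact 95% counting intervals) and the same ratio minus the median of genes of like GC content and length (right). Red points are α and green points β subunit genes, the dark and light grey bands hold the middle 50% and 90% of counted genes, the grey line is their median and dotted lines mark 2-fold, which 7 members pass on the left and 3 on the right.

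**Figure D3:**
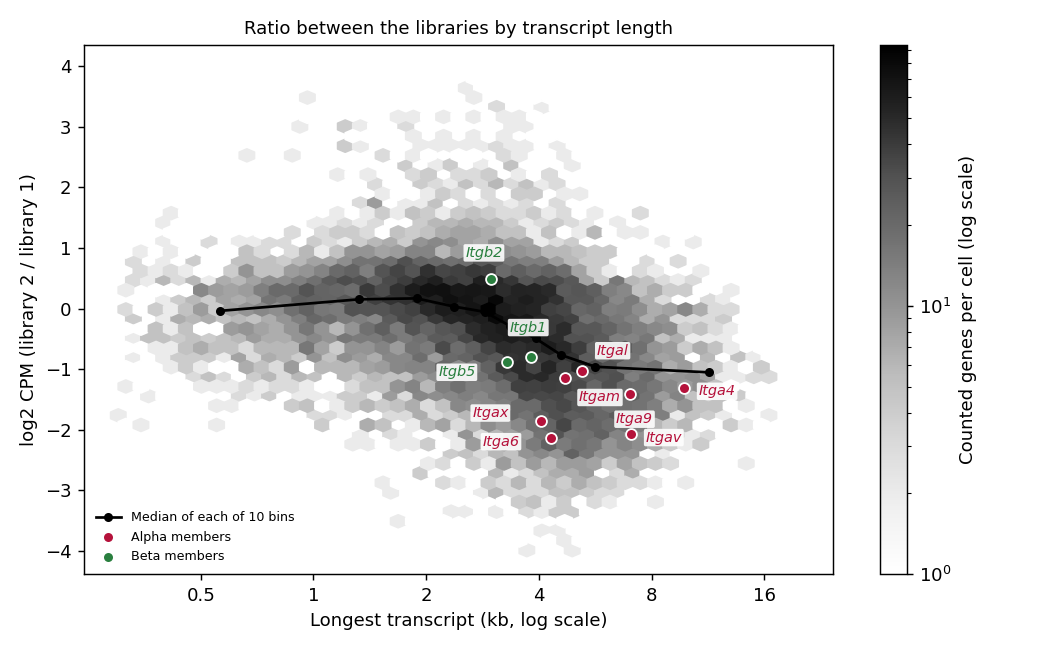
Log2 ratio of CPM between the libraries (y axis) against the length of the longest transcript (x axis, kb, log scale) for 13301 counted genes of 0.3 to 20 kb with a log2 ratio within 4 of 0, shaded by the number of genes per cell (log scale), with the median of each of 10 length bins as a black line. The members are labelled, and the α genes (red) sit at greater lengths and lower ratios than the β genes (green).

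Levels of different genes were compared per length, as counts per kb of the merged exons of each gene, scaled to 1000000 over all genes with a length (TPM). Both libraries gave the same order for all 9 pairs of neighbours, Itgb2, Itgb5, Itgb1, Itgam, Itga6, Itgav, Itga9, Itgal, Itgax and Itga4 from highest to lowest. Itgb2 had 672 and 763 TPM, and its range did not overlap that of Itgb5 (334 and 146 TPM). In the other 8 pairs the ranges over both libraries overlapped, although within each library the order was the same. The log2 gap was 0.86 and 1.21 between Itgb1 and Itgam, for example, and 0.97 and 0.90 between Itga6 and Itgav. Itgb5 and Itgb1 (299 and 139 TPM) were the closest in level. Itgam followed with 164 and 59.7 TPM, Itga6 with 77.4 and 14.1 TPM, and Itgav with 39.4 and 7.53 TPM. The low end was formed by Itga9 (20.6 and 6.23 TPM), Itgal (13.4 and 5.27 TPM), Itgax (8.41 and 1.88 TPM) and Itga4 (2.09 and 0.677 TPM). The longest transcript of each gene gave the same order. Counted over the bases that Gm49368 does not share, Itgam would reach 524 and 191 TPM and stand second, which is an upper value since the counts would then come from those bases alone.

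β subunit RNA exceeded α subunit RNA per length in both libraries. Summed over 18 α genes the level was 359 and 99.1 TPM, and over 9 β genes 1383 and 1211 TPM, so the ratio of α to β was 0.26 in library 1 and 0.0818 in library 2. Over bases that no other gene shares it was 0.522 and 0.190. Itgb2 made up 48.6% and 63.0% of the β sum, and Itgam 45.7% and 60.2% of the α sum. Itgb2l, described below beside the neutrophil list, had 0.643% and 10.9% of the β sum. Smaller shares in library 2 were held by Itgb5 at 24.2% and 12.1% and Itgb1 at 21.6% and 11.4% of the β sum, and by Itga6 at 21.6% and 14.2% and Itgav at 11.0% and 7.60% of the α sum. Partner ratios do not depend on the scaling of a library, but they do carry the trend with length. Itgb2 exceeded Itgam 4.10-fold in library 1 and 12.8-fold in library 2, or 1.28-fold and 4.0-fold over bases that no other gene shares. It exceeded Itgal 50.3-fold and 145-fold. For the αV pair, Itgb5 exceeded Itgav 8.48-fold and 19.4-fold. Itgb1 exceeded Itga6 3.86-fold and 9.83-fold, and Itga9 14.5-fold and 22.2-fold. After adjustment for GC content and length the direction turned for Itga9 (−0.03) against Itgb1 (−0.45), and Itga4 (−0.50) was about level with Itgb1, whereas the ratios of Itgam, Itgal and Itgax stayed below that of Itgb2, that of Itgav below that of Itgb5 and that of Itga6 below that of Itgb1. All of these ratios compare RNA, not protein at the surface.

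**Figure D4:**
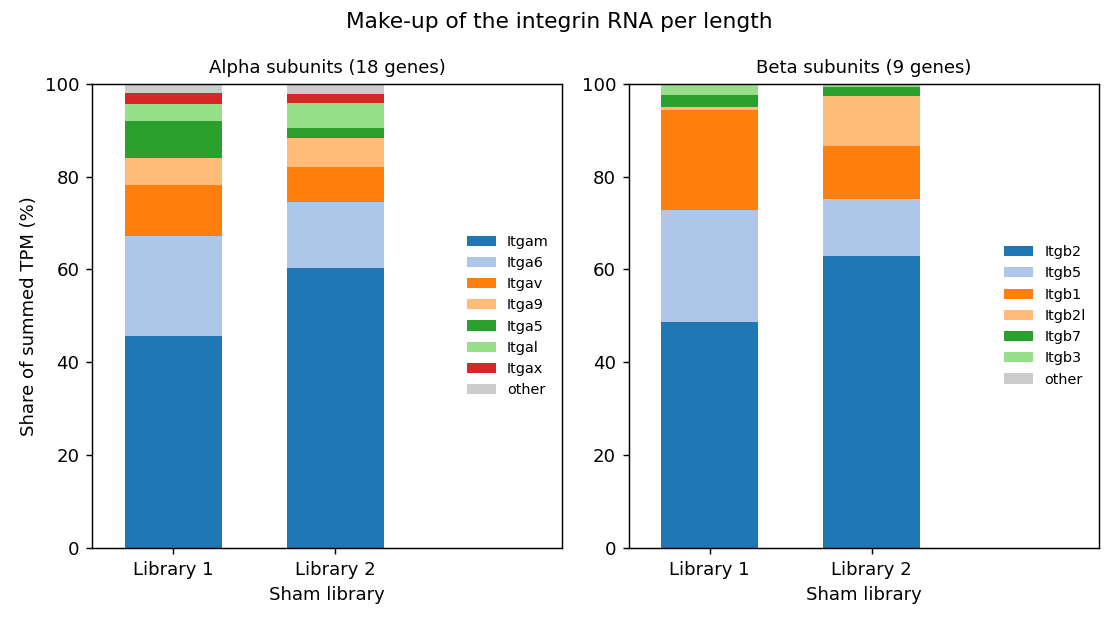
Share of the summed TPM (y axis, %) taken by each α subunit gene (left, 18 genes) and each β subunit gene (right, 9 genes) in library 1 and library 2, with the smallest genes pooled as other. Itgam and Itgb2 form the largest block in both libraries, and the Itgb2l block is 0.643% in library 1 and 10.9% in library 2.

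Outside the members, 6 of the 17 other integrin genes were counted, and 4 of these were lower and 1 higher by over 2-fold in library 2, beside 25.9% and 5.74% of all counted genes. After adjustment for GC content and length 2 stayed lower and 1 higher by over 2-fold, beside 12.7% and 9.70% of 13439 genes. Itgb3 went from −1.65 to −0.41. Itgb2l, a β2-like gene, had 316 counts (13.5 CPM) in library 1 and 10252 counts (249 CPM) in library 2, a log2 ratio of 4.20 (interval 4.04 to 4.37), or 4.41 after adjustment for GC content and length. Beside it, 11 of the 12 neutrophil genes had log2 ratios from 2.08 (Cxcr2) to 4.42 (Ngp) and Csf3r had −0.55, and the part of neutrophil RNA in the Itgb2l level was not tested. Itga5, the α chain of the fibronectin receptor, lay at the other end with 1161 counts (49.7 CPM) and 188 counts (4.57 CPM), a log2 ratio of −3.44 (−3.67 to −3.22). It was lower in library 2 by more than any member, and its ratio was −2.13 after adjustment for GC content and length. Beside it, the 5 border macrophage genes had log2 ratios before adjustment from −2.17 (Cd163) to 0.32 (Ms4a7), and their part in the Itga5 level was not tested. Itgb3, another β partner of αV, had 71.5 and 22.8 CPM, and the level of Itgav per length was 1.14 times and 0.852 times that of Itgb3. Itgae (7.14 and 1.94 CPM) and Itga1 (15 and 10 counts) were also lower by over 2-fold. The interval of Itga1 (−2.72 to −0.15) spans 2-fold, and its adjusted value was −0.58. Itgb7, a partner of α4 and αE, had 33.0 and 26.9 CPM. Itgb8, an αV partner that frees TGF-β1, had 8 and 4 counts, and Itgb6 had 0 in both libraries.

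The genes that switch integrins on were mostly counted, and the genes of high level named next, Fermt3 to Parvg, differed by less than 2-fold between the libraries. Of 31 activation and adaptor genes 29 were counted, 8 were lower by over 2-fold in library 2, 2 were higher and 19 were within 2-fold, with a median log2 ratio of −0.27 beside −0.26 for all counted genes. The share lower was near the 25.9% of all counted genes, of which 5.74% were higher. After adjustment for GC content and length, 2 of the list were lower and 3 higher by over 2-fold. Of all 13439 genes so adjusted, 12.7% were lower and 9.70% higher. Fermt3, the kindlin of blood cells, had 685 and 643 CPM and Rap1b, the small GTPase upstream of talin, 746 and 832 CPM. The Src family kinase Lyn (816 and 798 CPM) and the parvin Parvg (366 and 296 CPM) were likewise high in both. Talin itself, Tln1, had 469 and 113 CPM, a log2 ratio of −2.05 that became −0.37 after adjustment for GC content and length. Src (28.4 and 4.86 CPM, log2 ratio −2.55) and the adaptor paxillin, Pxn (140.03 and 26.0 CPM, −2.43), had the lowest ratios of the list. At −1.11 and −0.99 after adjustment, they stayed near 2-fold. Rasgrp2, which activates Rap1 (log2 ratio 1.62), and the kinase gene Fgr (1.31) were the genes higher by over 2-fold before adjustment. Fermt1 was at 0 in both libraries.

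Ligands of these receptors were partly made by the same pool. Of 21 ligand genes 12 were counted, with a median log2 ratio of −0.03. Of these, 2 were lower and 2 higher by over 2-fold and 8 were within 2-fold, beside 25.9% of all counted genes lower and 5.74% higher. After adjustment for GC content and length, 2 were lower and 3 higher by over 2-fold, beside 12.7% and 9.70% of 13439 genes. The adjusted median of the list was 0.41. Nrros, which tethers latent TGF-β1 to the microglial surface, had 615 and 575 CPM and was the highest. Tgfb1 itself had 54.7 and 10.7 CPM, a log2 ratio of −2.35 (interval −2.51 to −2.19) that was −2.35 after adjustment as well, and the fibronectin gene Fn1 (31.3 and 15.6 CPM) was at the 2-fold limit, with an interval of −1.16 to −0.85 that spans it and an adjusted value of 0.43. Icam1, a ligand of αLβ2 and αMβ2, had 287 and 264 CPM, and C3, whose fragment iC3b binds αMβ2 and αXβ2, had 46.9 and 49.5 CPM. The log2 ratio of C3 was 0.08, and 1.56 after adjustment. Spp1 (osteopontin) had 37.9 and 60.3 CPM and Mfge8 33.9 and 36.7 CPM. Icam2 (3.08 and 7.63 CPM) and Cdh1, the E-cadherin bound by αEβ7 (11 and 43 counts), were the ligand genes higher by over 2-fold before adjustment. Fgg, Lama1, Lama5 and Tnc were at 0 counts in both libraries.

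**Figure D5:**
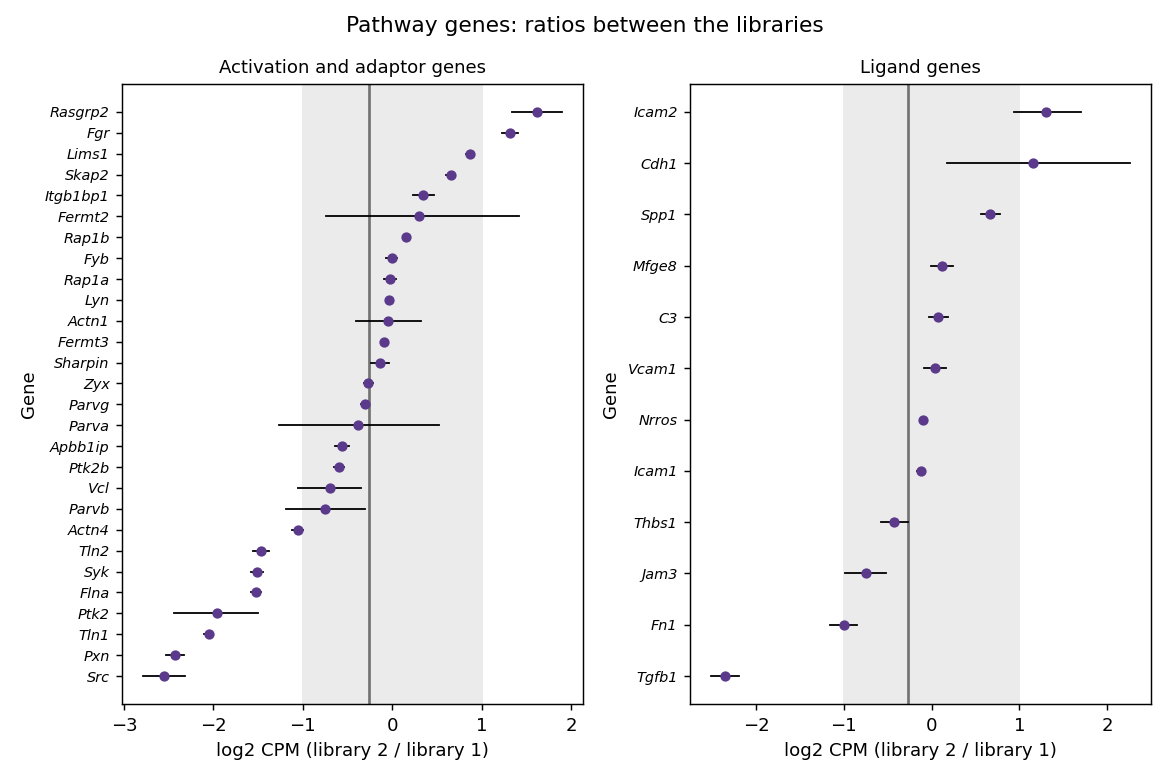
Log2 ratio of CPM, library 2 over library 1 (x axis), of 28 counted activation and adaptor genes (left) and the 12 counted ligand genes (right), with exact 95% counting intervals. The grey band marks 2-fold in either direction and the line the median of all counted genes at −0.26, and 18 and 8 of the genes drawn lie within the band.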

How the data were processed

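The data were bulk RNA-seq libraries of sorted microglia, 2 in number and both sham. RNA was amplified with a SMART-Seq kit and read as paired ends of 75 bases, by the study's methods. The authors mapped the reads and deposited raw counts per Ensembl gene with no normalization, and the submitters' processing notes name HISAT2, HTSeq and GRCm38. Their versions, the annotation release, the strand setting and the treatment of overlapping genes or multiply mapped reads are not given in the sources used here. Amplified RNA can represent long transcripts unequally, so ratios were also read against length, and the part of amplification was not tested.

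CPM was the count over all counts on genes, scaled to 1000000. A gene was taken as counted where each library held at least 10 counts. With 1 group of 2 mice no test was run. Means have the SD of both libraries, and log2 ratios have exact 95% Clopper-Pearson intervals of the ratio of 2 counts. PCR reads without molecular identifiers are not independent molecules, so intervals and the limit of 3 counts for a count of 0 cover counting error only. At the same CPM, counting error is smaller in the deeper library 2, but for each gene it follows the count itself. Itga6, for example, had 5741 counts in library 1 and 2285 in library 2, whereas Itgb2 had 16862 and 41814. Coordinates were copied from the deposited files and count from 1. Of 53801 identifiers, 53706 matched a symbol of GENCODE M21, and the coordinates of 9 of the 10 members were those of that release. TPM used the merged exons of each gene in M21. Ratios were adjusted by the median of genes in the same of 10 bins of GC content and 10 of length of the longest transcript, or by GC content only when a joint bin held under 20 genes. Shared sequence was sought as 75-base words of M21 transcripts, without use of read pairs. Scripts were tested on simulated data.

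Values were named for the 10 members, Ptprc and Ly6g, the other integrin genes that were counted, and, of each pathway list, the 5 with the highest mean CPM and the 3 with the largest absolute ratio among counted genes. Of the 11 marker lists, summed levels are given, and some of their genes and some genes at or near 0 were added after their values were seen. The members and lists were chosen with earlier results of these data known. Alternatives were TMM (edgeR 4.0.16), DESeq2 1.42.0 size factors, totals without mitochondrially encoded or neutrophil genes, other count minimums, transcript length and leaving out each library. The GC and length adjustment and the lengths without shared bases were added after seeing the data. The software was matplotlib 3.10.9, pandas 2.3.3, scipy 1.17.1, numpy 2.4.6, Python 3.11.15 and R 4.3.3. Protein sequences of the members were not analysed here, and some genes and sequences that these rules cover are not reported here.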

Additional observations from a re-analysis of the deposited data

How the results depend on the processing

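Only 2 mice of 1 group were measured, so no level has a replicate check beyond their spread. Among the members, counting error was largest for Itgax and Itga4. The difference between the libraries still exceeded it, with log2 ratios of −1.85 (interval −2.13 to −1.58) and −1.31 (−1.60 to −1.02). The mean levels of all 10 members moved by less than 1 SD under each scaling, and leaving out either library must do so with 2 libraries, so it says nothing of stability. With TMM or DESeq2 scaling 8 of the 10 ratios moved beyond their counting intervals, as did 5 with totals free of neutrophil genes and 0 with totals free of mitochondrially encoded genes, and none changed sign. Adjusted for GC content and length, the log2 ratio of Itgal was reversed to 0.45 and 3 members passed 2-fold in place of 7, as also 3 did with length alone, where Itgal was at −0.07. The log2 change of the Itga9 to Itgb1 ratio turned from −0.62 to 0.41 with GC content and length, and that of Itga4 to Itgb1 from −0.52 to 0.046 with length alone. With a minimum of 1 count in both libraries 7302 genes passed 2-fold in place of 4257, since genes of low counts enter. Lengths without the bases that other genes share raised the share of Itgam in the α sum from 53.0% to 77.6% and the α to β ratio from 0.171 to 0.356, and moved 3 members in the order, by construction of the shorter length. No paired analysis was possible because both libraries belong to 1 group.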
